A study of Danio rerio with 2 samples.

Results

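The 10 genes described here make, load or remove the small molecules that neurons release as transmitters. They are gad1b, gad2, slc32a1 and abat for GABA, slc17a6b for glutamate, th, tph2, ddc and dbh for the monoamines, and ache for acetylcholine. A probe belonged to the set when the gene symbol in the files, current or older, was 1 of these 10. This gave 35 probes of the 43553 on the array, and 10 genes of 27423 genes and unnamed targets. Only gad1b appeared under an older symbol, gad1, and its probes were matched by accession. Of the 10 genes, 6 had several probes and 4 (abat, slc17a6b, dbh and ache) had 1 probe each.

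Total RNA of zebrafish embryos of the AB strain was measured on 1-colour Agilent arrays, with 1 array for Tg(RE:HSE:EGFP) and 1 for wild type (WT). The Tg(RE:HSE:EGFP) line, sampled here as F2 embryos, carries a transgene with a bidirectional heat shock promoter confined to neither blood nor neurons. This promoter drives the human fusion gene RUNX1-Evi-1 on one side and EGFP on the other. Embryos of both genotypes had a heat shock of 38 °C for 1 h, which the methods place at 16 hpf (hours post fertilization) and the labels between 14 and 18 hpf, and the RNA was taken at 72 hpf. Selection of EGFP-positive embryos before the extraction is not described, and the paper reports EGFP in only part of the F2 offspring after heat shock. A separation of cells is not described either, so the values are read as those of whole embryos. The study's own results refer the array comparison to blood cells, and the sources do not settle which was hybridized.

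With 1 array per group there was no spread between embryos or arrays to test against. Therefore no p-values are printed, precision is limited by the number of arrays, and array batch and genotype cannot be told apart. None of the probe names refers to the fusion gene or to EGFP, so the genotype could not be checked on the arrays. Values are normalized log2 signals, in which 1 unit is a 2-fold step, and every difference is the Tg-labelled array minus the WT-labelled array. For hdac4 and h1fx this direction is the opposite of the study's, so the arrays are called the Tg-labelled and the WT-labelled array. A probe counted as above background when it passed the level that 95% of the 178 olfactory, gustatory and trace amine receptor probes stayed under, 6.70 on both arrays. Probes differ in how well they bind, so a signal is compared between arrays and not between probes or genes. The files list probe positions without naming an assembly. Since 2705 of 42151 positions lie on scaffolds with Zv8 in their name, positions are given as those of Zv8. The exon or untranslated region that a probe reads is not given in the files.

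GABA, the main inhibitory transmitter of the brain, is made from glutamate by glutamate decarboxylases that need pyridoxal phosphate. Glutamate itself is the main excitatory transmitter, and vesicular transporters pack both into synaptic vesicles. Monoamines are made in small groups of neurons from tyrosine or tryptophan by hydroxylases that need tetrahydrobiopterin, followed by a shared decarboxylase. Acetylcholine is the transmitter of motor neurons and is split in the synaptic cleft. In RNA of whole embryos, fewer cells of a type and less RNA per cell cannot be told apart.

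Of the 10 genes, 5 were above background on both arrays (gad2, slc32a1, abat, ddc and ache) and 3 on 1 array only, gad1b on the WT-labelled array and th and tph2 on the Tg-labelled array. The vesicular glutamate transporter gene slc17a6b and the noradrenaline enzyme gene dbh were above background on neither. Where a gene had several probes, the one with the highest mean over both arrays was used. No member was at least 2-fold higher on the Tg-labelled array, where 4.72% of all 16309 genes above background on 1 array or both were. One member, gad1b, was at least 2-fold lower, beside 3.51% of all genes. Among the 5 genes above background on both arrays, 2 differences were above 0 (ddc and ache) and 3 below 0 (gad2, slc32a1 and abat), while 47.3% of all 14575 such genes were above 0. Their median difference was -0.05 and that of all such genes was -0.03, with 5% of all genes under -0.88 and 5% over 0.94. With gad1b, th and tph2 taken at their bounds the median of the 8 was -0.02. The counts of so few genes are a description of the members and not a property of the set.

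**Figure D1:**
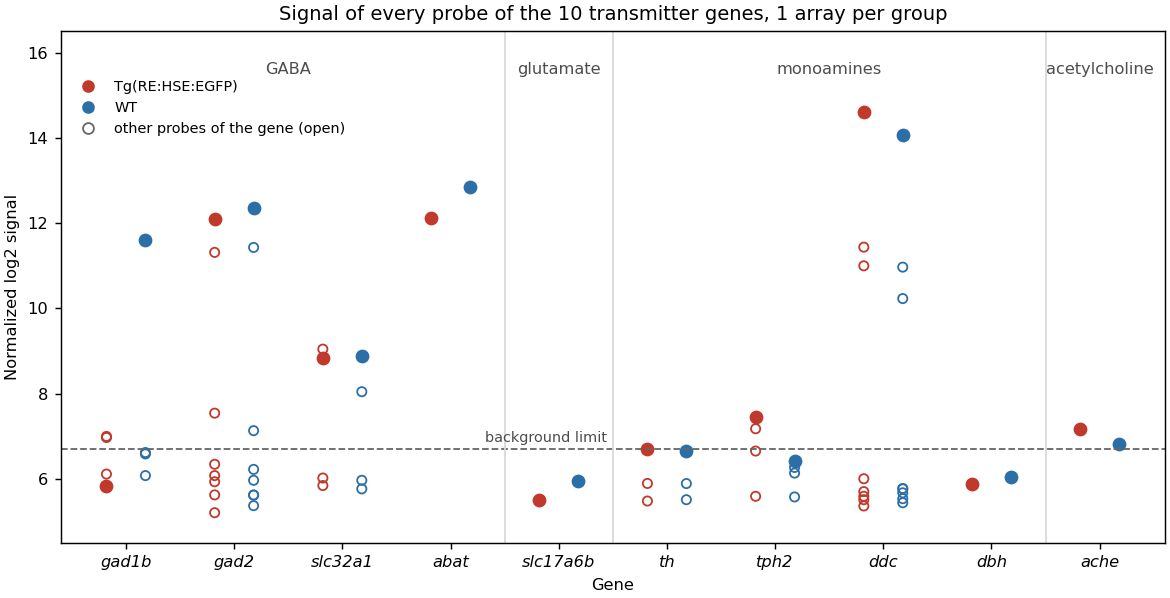
Normalized log2 signal (vertical axis) of all 35 probes of the 10 genes, with the Tg-labelled array left of the WT-labelled array for each gene, filled points for the probe used and open points for the others. The filled gad1b points lie at 5.84 on the Tg-labelled array and 11.60 on the WT-labelled array, on either side of the dashed background limit of 6.70, while no other filled pair is further apart than 1.03.

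The gene gad1b, which encodes the form of glutamate decarboxylase that, in mammals, is spread through the neuron and makes most of its GABA, had the largest difference of the 10. Its brightest probe, at chr6:4302611-4302670, had a signal of 5.84 on the Tg-labelled array and 11.60 on the WT-labelled array, a difference of -5.76. Since this probe was not above background on the Tg-labelled array, the value is a bound. It was at least 29.7-fold lower there, taking the lowest signal above background on that array in place of its own. Its 3 other probes lie 22848 to 23711 bases further up the chromosome, and they did not show this difference. The probe at chr6:4325788-4325852 had 6.99 and 6.62, and that at chr6:4326322-4326381 had 6.97 and 6.58, on the Tg-labelled and WT-labelled arrays. Both were above background on the Tg-labelled array only, with differences of 0.38 each. The probe at chr6:4325459-4325518 was above background on neither array, at 6.11 on the Tg-labelled array and 6.08 on the WT-labelled array. The call for gad1b therefore rests on 1 probe, and the probes near the background limit leave little room to show a decrease.

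How often a single probe behaved this way was counted over the whole array. There were 11 probes at least 4 log2 units lower on the Tg-labelled array and above background on the WT-labelled array alone, and 2 probes with the opposite pattern. For 6 of the 11 the gene or target had no other probe. The remaining 5 belonged to gad1b and 4 further genes with, in all, 10 other probes, of which the 3 of gad1b were under the limit on the WT-labelled array and could not show a 2-fold decrease. The 7 others, above background there, differed by -0.60 to 0.92, and 0 of the 7 were 2-fold lower. Named here after its values were seen, csad encodes cysteine sulfinate decarboxylase, which is related in sequence to the glutamate decarboxylases and works in taurine synthesis. The csad probe among the 11 had 6.46 on the Tg-labelled array and 11.21 on the WT-labelled array, and the other csad probe had 8.96 and 9.56, a difference of -0.60.

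The gene gad2, which encodes the form of the enzyme that is enriched at nerve terminals, was nearly level between the arrays. Its brightest probe, at chr24:6077044-6077103, had 12.09 on the Tg-labelled array and 12.36 on the WT-labelled array, a difference of -0.28 or 1.21-fold. A probe just below it, at chr24:6076886-6076945, had 11.31 and 11.43, a difference of -0.12, and a dimmer one at chr24:6073599-6073658 had 7.54 and 7.13, a difference of 0.41. Among these 3 the differences thus spanned 0.69 log2 units and both signs, so gad2 had no settled direction. The 5 other probes, at 5.20 to 6.34 on the Tg-labelled array and 5.37 to 6.22 on the WT-labelled array, were above background on neither. One of these is listed over only 12 bases and shares 7 of them with the probe at 7.54.

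The gene slc32a1 encodes the transporter that loads GABA and glycine into vesicles, and 2 of its 4 probes were above background, on both arrays. The probe with the highest mean, at chr6:61127341-61127400, had 8.84 on the Tg-labelled array and 8.89 on the WT-labelled array, a difference of -0.05. The other, at chr6:61125904-61125963, had 9.04 and 8.04, a difference of 1.00, just short of 2-fold before rounding. These 2 probes lie 1437 bases apart and their differences lay 1.05 log2 units from each other, so the value of slc32a1 depends on the probe read. Of 5905 genes with 2 or more probes above background on both arrays, 4.01% had differences that spread over 1 unit or more, and the median spread was 0.25. The remaining slc32a1 probes, at 6.02 and 5.84 on the Tg-labelled array and 5.76 and 5.97 on the WT-labelled array, were above background on neither.

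Breakdown of GABA begins with abat, which encodes 4-aminobutyrate aminotransferase of the mitochondria. Its single probe, at chr3:25218459-25218518, had 12.12 on the Tg-labelled array and 12.85 on the WT-labelled array, a difference of -0.73 or 1.66-fold. Of all genes above background on both arrays, 16.2% differed by more, in either direction. With 1 probe, abat has no second reading on these arrays. Probes that the files describe as similar to GAD1 (LOC100006588) and to SLC32A1 (LOC100002902) carry no member's symbol and were not counted. They were above background on neither array, at 5.82 and 6.16 on the Tg-labelled array and 5.73 and 5.88 on the WT-labelled array.

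**Figure D2:**
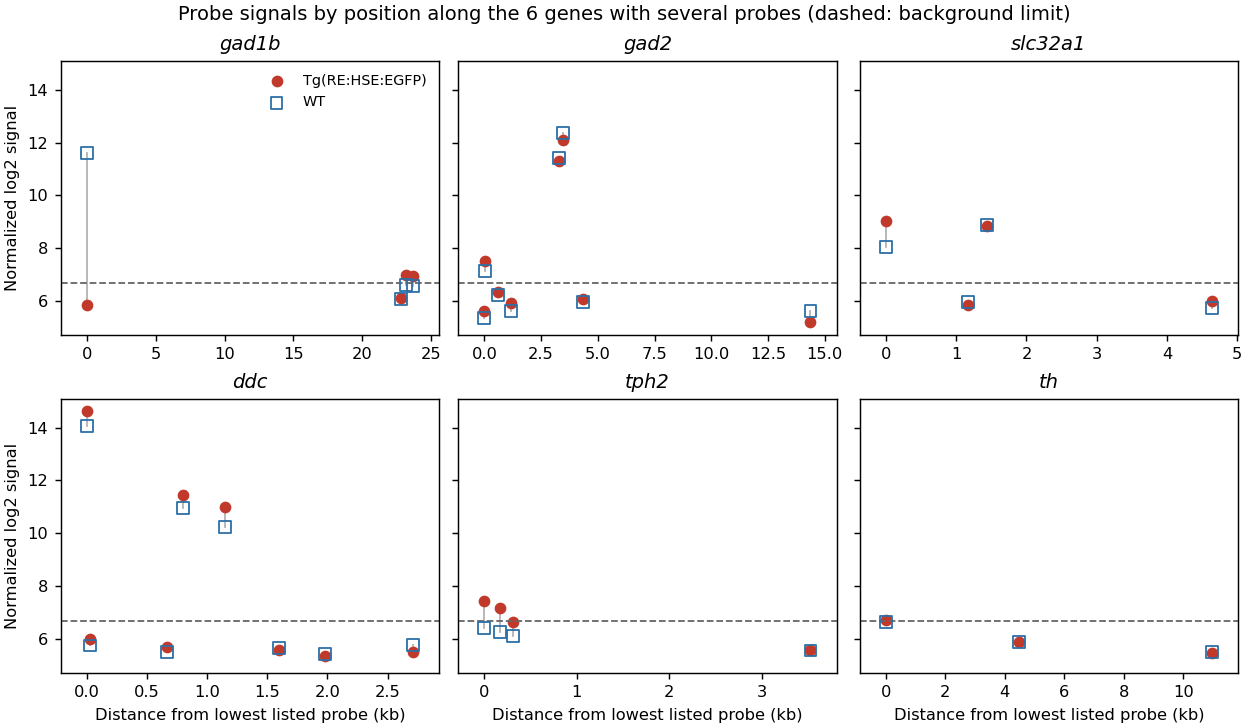
Normalized log2 signal (vertical axis) of each probe by its distance in kb from the lowest listed probe of the gene (horizontal axis), for the 6 genes with several probes, with filled circles for the Tg-labelled array and open squares for the WT-labelled array. For gad1b the 1 probe at distance 0 differs by 5.76 log2 units and the 3 probes 22848 to 23711 bases away stay near the dashed background limit, whereas the 3 bright ddc probes are all higher on the Tg-labelled array.

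The vesicular glutamate transporter gene slc17a6b, which encodes VGLUT2, had a single probe at chr7:33140900-33140959. It had 5.51 on the Tg-labelled array and 5.94 on the WT-labelled array, both under the limit, so no change can be given. This is a statement about the probe at this depth of signal and not about whether the gene is active.

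Tyrosine hydroxylase, encoded by th, catalyses the rate-limiting step of dopamine and noradrenaline synthesis. Its brightest probe, at chr25:25083435-25083494, had 6.71 on the Tg-labelled array and 6.66 on the WT-labelled array, the first just over the limit and the second just under it. The other th probes had 5.89 and 5.48 on the Tg-labelled array and 5.89 and 5.51 on the WT-labelled array. No difference was detectable for th at these signals. The same held for dbh, which encodes the enzyme that turns dopamine into noradrenaline, with 5.88 on the Tg-labelled array and 6.03 on the WT-labelled array for a probe listed over 4597 bases, chr10:13920768-13925364.

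The gene tph2 encodes a tryptophan hydroxylase found in neurons, an enzyme of the first step of serotonin synthesis, and was above background on the Tg-labelled array only. Its brightest probe, at chr18:17185581-17185640, had 7.44 on the Tg-labelled array and 6.41 on the WT-labelled array, a measured difference of 1.03. Taken against the lowest signal above background on the WT-labelled array, it was at least 1.66-fold higher on the Tg-labelled array, under the 2-fold threshold. A second probe, at chr18:17185752-17185811, had 7.17 and 6.27, or at least 1.38-fold higher. The third, at 6.65 and 6.13, and the fourth, at 5.59 and 5.57, were above background on neither array. All 4 tph2 differences were above 0, from 0.01 to 1.03, and the 3 larger ones came from probes within 314 bases of each other.

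The gene ddc encodes aromatic L-amino acid decarboxylase, which makes dopamine from L-DOPA and serotonin from 5-hydroxytryptophan and is also present outside neurons, in liver and kidney among other organs. Its brightest probe, at chr16:7112538-7112585, had 14.61 on the Tg-labelled array and 14.07 on the WT-labelled array, a difference of 0.53 or 1.45-fold. The probe at chr16:7113333-7113392 had 11.44 and 10.97, a difference of 0.47, and that at chr16:7113685-7113744 had 11.00 and 10.23, a difference of 0.77. All 3 probes above background were thus higher on the Tg-labelled array, within 0.30 log2 units of each other, which makes ddc the member with the most repeated reading. The difference was not unusual in size, since 28.7% of all genes above background on both arrays differed by more. The 5 other ddc probes, at 5.36 to 6.001 on the Tg-labelled array and 5.44 to 5.77 on the WT-labelled array, were above background on neither, and 1 of them overlaps the brightest probe by 27 bases. Of 9 liver marker genes above background on both arrays, 6 had a difference above 0, beside 47.3% of all such genes. The median of the 9 was 0.24. At least 2-fold higher were 2 of them, fga at 1.01 and fgg at 1.58, beside 4.72% of all genes above background on 1 array or both. The gene fabp10a was above background on the Tg-labelled array only, at 7.45 and 6.13, with a bound of 0.74. The gene ttr was above background on neither array. The summed linear signal of the 11 liver genes was 512761 on the Tg-labelled array and 472063 on the WT-labelled array. Bright genes weigh most in this sum. By their brightest probes apoa2, at 17.67 and 17.04, and tfa, at 16.55 and 17.13, differed in opposite directions. The part of the liver genes in the ddc value was not tested.

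Acetylcholinesterase, encoded by ache, ends transmission at cholinergic synapses and is also made by skeletal muscle. Its probe at chr7:26133916-26133975 had 7.17 on the Tg-labelled array and 6.81 on the WT-labelled array, a difference of 0.36 or 1.29-fold, close to the background limit on both. A probe described as an acetylcholinesterase precursor transcript has no gene symbol and was therefore not counted with the members. It had 7.002 on the Tg-labelled array and 6.65 on the WT-labelled array. The second value was under the limit, so the measured difference of 0.36 is not a second reading above background on both arrays. Of all genes above background on both arrays, 46.0% differed by more than ache did. By their brightest probes, skeletal muscle markers were higher on the Tg-labelled array for 11 of 11 genes. Of all genes above background on both arrays, 47.3% had a difference above 0. For acta1a this depends on the probe, since its brightest differed by 0.18 and its others by -0.70 and -0.63. By at least 2-fold 5 of the 11 markers were higher, beside 4.72% of all genes above background on 1 array or both. The median of the markers was 0.91. Their summed linear signal was 1193868 on the Tg-labelled array and 691123 on the WT-labelled array. Their part in the ache value was not tested.

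**Figure D3:**
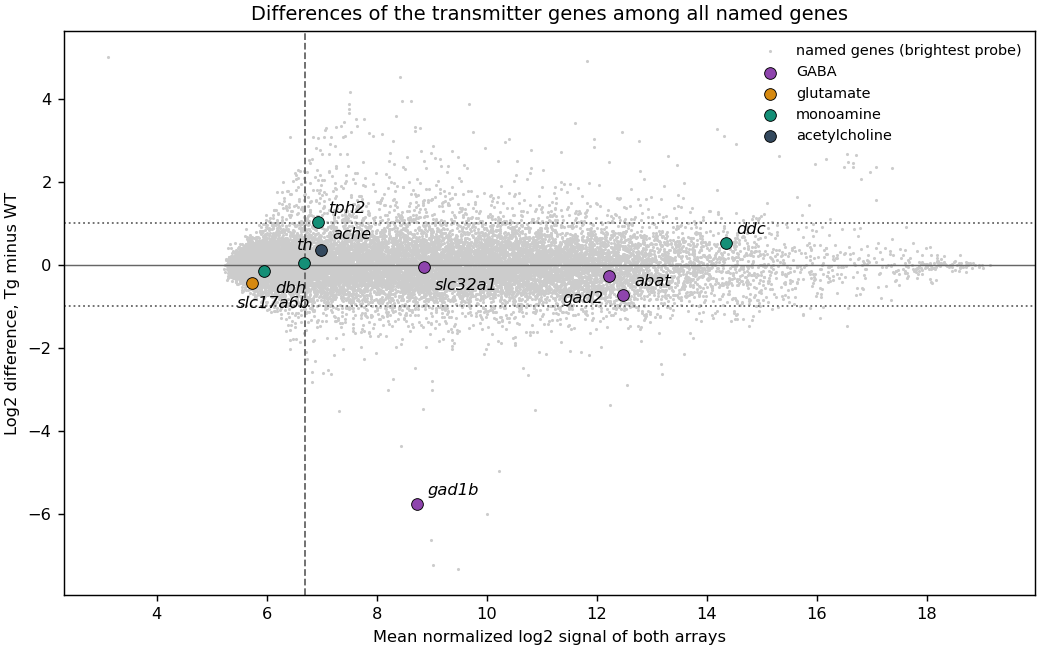
Log2 difference, Tg-labelled minus WT-labelled array (vertical axis), against the mean normalized log2 signal of both arrays (horizontal axis) for all named genes in grey and the 10 transmitter genes in colour by transmitter. Dotted lines mark 2-fold, the dashed line the background limit, and gad1b at -5.76 lies far below the grey cloud while ddc, abat, gad2, slc32a1 and ache lie within it.

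The pathway around these genes was read from lists of 73 further genes, 54 of them with a probe and 31 above background on both arrays. Of the 33 above background on 1 array or both, 0 were at least 2-fold higher on the Tg-labelled array and 0 were lower. Beside this stood 4.72% and 3.51% of all genes. These counts use the brightest probes, and other probes of the cofactor genes pcbd1 and pdxka differed by 1.02 and 1.285. Among the 31, 21 differences were above 0 and 10 below 0, where 47.3% of all genes above background on both arrays were above 0. The 31 had a median of 0.18 and a range of -0.70 to 0.78. The lists are described below by the step of the pathway their genes serve.

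For GABA, the astrocyte-type uptake transporter gene slc6a11a had 9.47 on the Tg-labelled array and 10.17 on the WT-labelled array, a difference of -0.70. The neuronal uptake transporter gene slc6a1b had 9.08 and 8.78, a difference of 0.30, and the aldehyde dehydrogenase gene aldh9a1a.1 had 15.58 and 15.37, a difference of 0.21. The gene slc6a1a, a relative of slc6a1b, was above background on the WT-labelled array only. It had 6.54 on the Tg-labelled array and 6.84 on the WT-labelled array. These uptake genes did not share a direction.

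Among 24 genes of glutamate synthesis, loading, uptake and recycling, 12 were above background on both arrays, 9 with a difference above 0 and 3 below 0. The 6 synthesis genes of these were all above 0, led by got2a, a mitochondrial aspartate aminotransferase (9.75 on the Tg-labelled array and 9.13 on the WT-labelled array, a difference of 0.63), and glsb, a glutaminase that forms glutamate from glutamine (7.37 and 6.79, a difference of 0.59). Of the uptake genes, slc1a2b, the main glial glutamate transporter, had 11.83 and 11.22, a difference of 0.61, while slc1a3a, another glial transporter gene, had 13.48 and 13.83, a difference of -0.35, and 0.085 by its other probe. Glutamine synthetase closes the cycle in glia. Its gene glulb had 16.45 on the Tg-labelled array and 17.00 on the WT-labelled array, a difference of -0.55, and all 5 glulb probes were below 0, between -0.55 and -0.12. The paralog glula had 14.35 and 14.59, a difference of -0.25, but its other probe had 11.41 and 11.21, a difference of 0.20, so glula had no settled direction. Of 8 glia markers, 3 were above 0 and 5 below 0, with a median of -0.15. Among the 5, gfap differed by -0.37 by its brightest probe, but by -0.14 and 0.33 by others above background on both arrays. The summed linear signal of the 8 markers was 109190 on the Tg-labelled array and 50203 on the WT-labelled array. Most of each sum came from fabp7a, of radial glia, which had 16.57 and 15.13, a difference of 1.43. The myelin genes went both ways, with mpz at -1.60 by its brightest probe and plp1b at 0.43. The other mpz probes, not above background on the Tg-labelled array, differed by -0.41 and -0.10. The part of glia in these values was not tested. The loading genes slc17a6a and slc17a8, like slc17a6b, were above background on neither array, and slc17a7a was barely above it, at 6.99 and 6.87.

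For the monoamines, 7 of 18 listed genes were above background on both arrays, with a median difference of 0.14. The breakdown gene mao, the single monoamine oxidase gene of zebrafish, had 9.11 on the Tg-labelled array and 8.43 on the WT-labelled array, a difference of 0.68. Of the synthesis genes, the melatonin enzyme gene asmt2 had 7.30 and 7.89, a difference of -0.59, and tph1b, a tryptophan hydroxylase gene distinct from tph2, had 8.80 and 9.17, a difference of -0.37. The serotonin uptake gene slc6a4a had 7.12 and 6.90, a difference of 0.22. The vesicular monoamine transporter genes slc18a1 and slc18a2 had no probe, so loading of monoamines could not be read.

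The cofactors of these enzymes are made by shared pathways that also serve phenylalanine breakdown in liver and pigment synthesis. Of 8 cofactor genes above background on both arrays, 5 were above 0, with a median of 0.27. The largest was pcbd1, which recycles the pterin cofactor, with 14.75 on the Tg-labelled array and 13.97 on the WT-labelled array, a difference of 0.78, and 1.02 and 0.88 for its other probes. The gene pts, of tetrahydrobiopterin synthesis, had 11.29 and 10.53, a difference of 0.76, but its other probe differed by -0.33, so only 1 of its 2 probes was higher. The recycling gene qdpra had 11.27 and 10.72, a difference of 0.55. Of the pyridoxal phosphate genes, pnpo had 6.90 and 7.44, a difference of -0.55. The gene pdxka differed by 0.18 by its brightest probe and by -0.24 and 1.285 by its others, so it had no settled direction. The acetylcholine genes with a probe, the synthetic enzyme gene chata and the vesicular transporter genes slc18a3a and slc18a3b, were all above background on neither array.

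Transcription factors that act in neurons of a given transmitter or in their formation were listed as well, and several also act in other cells. Of the 42, 31 were above background on both arrays, 11 above 0 and 19 below 0, with a median of -0.13. Of the 10 factors of GABA neurons, 9 were below 0 and 1, ptf1a at 0.25, was above it, with a median of -0.40. Among the 9, lhx1a was nearly level, at -0.06. Of all genes above background on both arrays, 47.3% were above 0. Genes of the Dlx family, which act in GABA neurons of the forebrain and also in the skeleton of the face and fins, were among the lowest. The gene dlx2a had 9.90 on the Tg-labelled array and 10.76 on the WT-labelled array, a difference of -0.87, and dlx5a had 11.80 and 12.58, a difference of -0.78. None of the 10 reached 2-fold.

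Of the 35 factors above background on 1 array or both, 1 was at least 2-fold higher on the Tg-labelled array. Another, not reported here, was at least 2-fold lower. These counts stand beside 4.72% and 3.51% of all genes. The higher factor was phox2bb, of noradrenergic and autonomic neurons, which had 10.97 on the Tg-labelled array and 9.94 on the WT-labelled array. Its difference was 1.02, with 1.01 and 0.92 for its other probes. Its relative phox2a had 10.24 and 9.47, a difference of 0.78. All 3 phox2bb probes thus differed in the same direction. Of 13 factors of monoamine neurons, 8 were above background on both arrays, with a median of 0.01 and 4 above 0. The factors phox2ba, nr4a2a and nr4a2b were above background on the Tg-labelled array only, with bounds of 0.77, 0.60 and 0.06. Of 9 factors of glutamate neurons above background on both arrays, 3 were above 0 and 5 below 0, with a median of -0.05. Among them barhl2, of dorsal spinal cord and retinal neurons, had 10.94 on the Tg-labelled array and 10.22 on the WT-labelled array. Its difference was 0.72. The factor eomesa had 9.78 and 10.29, a difference of -0.51.

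General markers of neurons were set beside the members. Of the 13, all were above background on at least 1 array and 12 on both. Of these 12, 11 had a difference above 0, beside 47.3% of all such genes, and 1, elavl4, was at -0.82. The other elavl4 probes differed by -0.27, in the same direction, and by 0.58, so elavl4 had no settled direction. The median of the 12 was 0.35. The summed linear signal of the 13 markers was 20086 on the Tg-labelled array and 14645 on the WT-labelled array. The differences of gad2, slc32a1 and abat (-0.28, -0.05 and -0.73) ran below the median of these markers when read from their brightest probes, and those of ddc and ache (0.53 and 0.36) at or above it. This order depends on the probe, since further probes of slc32a1 and gad2 differed by 1.00 and 0.41. Of 9 erythrocyte markers, of the tissue the study was about, the 4 globin genes differed by -0.06 to 0.02 by their brightest probes. These had signals of 18.26 to 19.00, with hbbe1.1 at 19.00 on both arrays. Whether a difference can still show at such signals was not tested. Dimmer probes of hbae1.1, at 12.95 and 12.63, and of hbbe3, at 9.97 and 9.80, differed by 0.325 and 0.173. The other 5 erythrocyte markers ran between -1.54 (epb41b) and -0.53 (alas2) by their brightest probes. Among them gata1a, the erythroid master regulator, had 9.20 on the Tg-labelled array and 10.15 on the WT-labelled array. Its other probe had 8.14 and 8.43, a difference of -0.29. The other probe of slc4a1a differed by 0.04 and that of epb41b by -1.27, so the size of these differences depends on the probe read. The part of neuron number or of blood cells in the members' values was not tested.

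**Figure D4:**
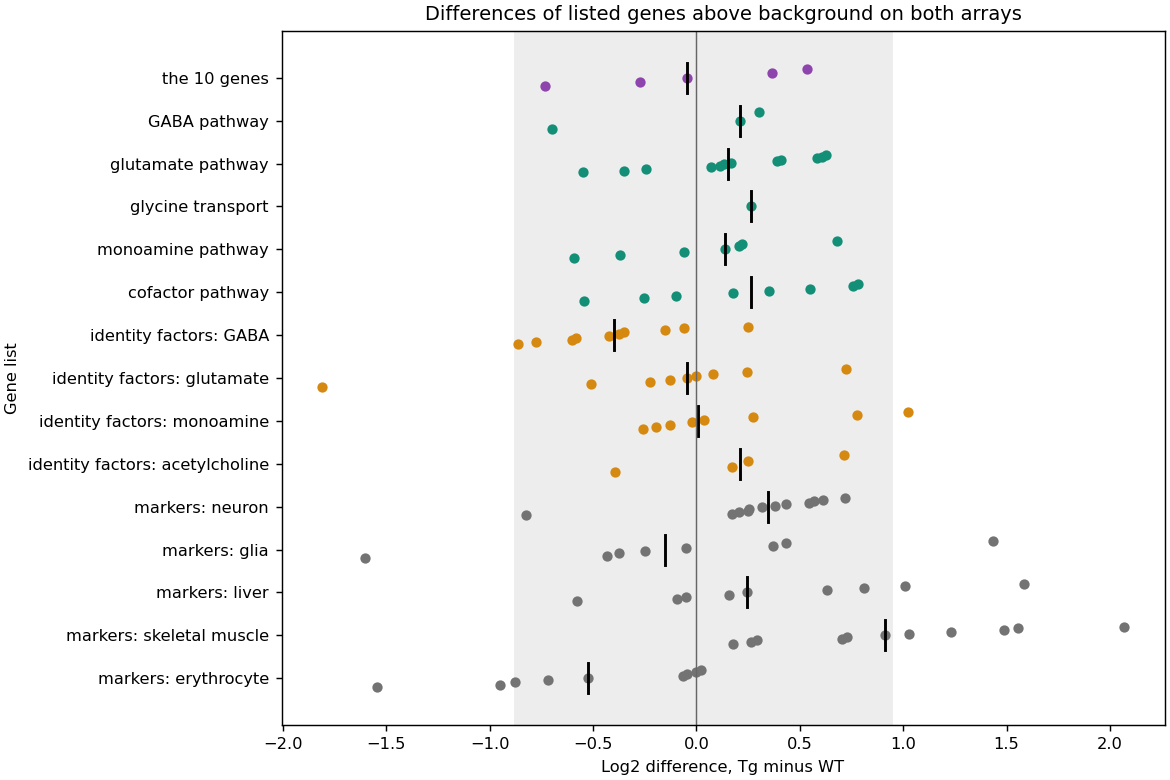
Log2 difference, Tg-labelled minus WT-labelled array (horizontal axis), of each gene above background on both arrays, by gene list (vertical axis), with black bars at list medians and a grey band from the 5th to the 95th percentile of all genes (-0.88 to 0.94). By their brightest probes, the 5 transmitter genes and all pathway genes lie inside the band, and all 11 skeletal muscle markers lie right of 0. Of the factors of GABA neurons 9 of 10 lie left of 0, where 47.3% of all such genes were above 0.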

How the data were processed

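The authors extracted total RNA with TRIzol, labelled cRNA with Cy3, hybridized 1-colour Agilent zebrafish arrays and scanned them. The images were processed in Feature Extraction, with no version stated in the sources. As deposited by the authors, the values are normalized log2 signals, 1 per probe and array. The sources state neither the normalization method nor background flags. The methods mention triplicates, but 1 array per group was analysed here, and the sources do not say whether it holds a mean. The series-wide table was identical at all 43553 probes. Across probes, which are not independent replicates, Pearson's r between the arrays was 0.98.

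From each array its 75th percentile was subtracted (a shift of -0.001 in every difference), and printed signals are the deposited ones. Probes were named by accession (26989), current symbol (2614), older symbol (1589) or the name in the files (4227, and 21 more that matched several genes), with a GRCz12tu gene table used for names only, and 8113 stayed unnamed. The brightest probe by the mean of both arrays stood for a gene. The design foresaw background flags or, without them, the 95th percentile of the receptor probes, which was used. A gene above background on 1 array was given a bound, its signal against a floor, namely the lowest signal above background on the other array, or the probe's own signal there if higher. Named were all 10 members and, of each list, genes past 2-fold and up to 4 more with the largest differences, apart from 1 gene that is not reported here. The members and lists were chosen with earlier results of these data known. No test was possible without replicate arrays. Alternatives were other scalings, filters, probe choices and thresholds. The steps were tested on simulated data, with changes placed only in genes well above background on both arrays and alike in all their probes. A change read as a bound or from 1 probe of several, as for gad1b, was not simulated. Scripts ran in Python 3.11.15 with matplotlib 3.10.9, pandas 2.3.3, scipy 1.17.1 and numpy 2.4.6.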

Additional observations from a re-analysis of the deposited data

How the results depend on the processing

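Median centring, no scaling, quantile normalization and the table of the series changed no count of members and no sign. The choice of probe did. For gad1b the mean over its 4 probes was -1.24 and the probe nearest the median of the gene gave 0.38. For gad2 these settings gave 0.049 and 0.12, and for slc32a1 the mean over probes was 0.27, all against differences below 0 from the brightest probes. The mean over probes, dim ones included, was 0.62 for tph2 and 0.22 for ddc, and 0.24 for ddc by the probe nearest the median, each still above 0. The median of the members was -0.05, but 0.22 with the mean over probes.

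The count of members at least 2-fold lower was 0 in place of 1 over genes above background on both arrays, with the probe nearest the median, and when all probes above background had to agree, since gad1b then no longer counted. It was 2 at 1.5-fold, where abat joined gad1b. The count at least 2-fold higher was 1 in place of 0 with no filter on dim probes and 1 at 1.5-fold, tph2 in both cases. Over all genes, 477 in place of 770 were higher with the 99th percentile of the receptor probes as the limit. At 1.5-fold 2012 were higher and 2037 lower, and at 4-fold 111 and 38. No paired analysis was possible because there is 1 array per group, and for the same reason leaving out a replicate could not be run. The signal over background limits what th, tph2, slc17a6b, dbh and ache can show.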
